A study of Anas platyrhynchos with 6 samples.

Results

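Homeobox genes encode transcription factors that bind DNA through a shared domain, the homeodomain. They were followed here in the ovarian tissue of 6 ducks (Anas platyrhynchos) aged 71 weeks from a full-sib family, killed 12 h after feed was withdrawn. Of these ducks, 3 were layers of many eggs (HEN, high egg number) and 3 of few (LEN, low egg number), and each gave 1 RNA sequencing library. Values of a group are given in the order of its replicates 1, 2 and 3. No treatment or genotype distinguished the groups, which differed by the laying record given in the labels. The genes were taken from the deposited table by symbol, covering the HOX, GSX, MEOX, DLX, MSX, EMX, NKX, LHX, ISL, PITX, PRRX, sine oculis-related, MEIS, PBX, TGIF and ZEB families. Where a symbol had several rows, the row with the highest mean was used. This gave 64 genes of 16450 in the table, on 42 scaffolds. Values are FPKM, fragments scaled by transcript length and library size. Of the 64 genes, 41 averaged 1 FPKM or more across all libraries and were tested, 23 fell below that mean, and 4 of these 23 were listed at 0 in every library (EMX1, HOXC11, LHX5 and SIX6). The other 19 stayed at or below 2.35 FPKM in any library. The oocyte factors NOBOX and NANOG and the IRX family, which the same search included, had no row under those symbols and were not analysed here.

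HOX genes lie in clusters, and their order along a cluster follows the order in which they pattern the body axis. MEIS and PBX proteins, of the TALE class, bind DNA together with HOX proteins. In the mouse, LHX8 is required for oocyte survival and differentiation, EMX2 and LHX9 for the formation of the gonad, and MSX1 and MSX2 act in female germ cells as they enter meiosis. ZEB proteins are zinc finger repressors with a homeodomain, known for their part in the change from epithelial to mesenchymal cells.

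The libraries held 18213744 to 19831761 mapped fragments, read from the steps between FPKM values, and all deposited values were whole multiples of 1 fragment. The HEN libraries were not alike. Summed over 14 oocyte and germ cell markers in the table (of 25 listed), the level was 751, 23.1 and 17.02 FPKM in the HEN ovaries, against 1100, 767 and 1838 FPKM in the LEN ovaries. DDX4 and DAZL, which define germ cells, were listed at 0 in HEN replicate 2 and at 0.208 and 0.124 FPKM in HEN replicate 3. Across the 41 homeobox genes, HEN replicates 2 and 3 had a Pearson's r of 0.975 on the log2(FPKM + 1) scale, whereas HEN replicate 1 reached 0.598 and 0.576 with them. With the LEN libraries it reached 0.618 to 0.934, a description across genes that are not independent replicates. In bulk tissue, fewer cells of a type and less RNA per cell cannot be told apart.

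The question was which homeobox genes differ in ovarian level with the laying record. The LIM and NK-like homeobox genes had lower HEN means on the log2 scale for all 11 genes tested, also under every scaling. Among these, DLX6 and LHX1 averaged 0.43 and 0.66 FPKM in HEN. They passed the filter through LEN, where they averaged 5.95 and 5.79 FPKM. Of all transcripts, 62.9% were lower in HEN. Without HEN replicates 2 and 3 the median difference went from -2.002 to -0.32 for LIM genes and from -2.53 to -1.03 for NK-like genes. LHX4 turned to 0.10 in that fit. Summed levels of the HOX genes of paralog groups 2 to 9, of the TALE genes and of the LIM and NK-like genes all overlapped between the groups. Single genes among them, such as TGIF2, HOXB7 and HOXB6, did not overlap. Summed over the 20 LIM and NK-like genes found, the level was 199.98, 15.6 and 14.003 FPKM in the HEN ovaries, against 334, 182 and 396 FPKM in the LEN ovaries. HEN replicate 1 thus lay above LEN replicate 2, and MSX1 and EMX2 together made up most of this sum in every library. Summed over 13 HOX genes of paralog groups 2 to 9, it was 110.2 to 123 FPKM in the HEN ovaries and 93.6 to 119 FPKM in the LEN ovaries, and over 7 TALE genes it was 124 to 143 FPKM in the HEN ovaries and 94.3 to 150.1 FPKM in the LEN ovaries. No homeobox gene passed the test across all transcripts.

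In limma with Benjamini-Hochberg adjustment over 13328 transcripts, 0 of the 41 genes had an adjusted p under 0.05, as had 0% of all transcripts, and the smallest adjusted p among the genes was 0.226. Without adjustment, a p under 0.05 was found for 16 genes (39%, against 22% of all transcripts), of which 2 had higher HEN levels (5.1% of all transcripts) and 14 lower HEN levels (16.9% of all transcripts). Limma's voom on the recovered fragment numbers, an alternative chosen after seeing the data, also called 0 genes. The groups did not overlap for 11 genes, which was 26.8% of the genes against 20.3% of all transcripts. HEN lay above LEN for 3 (7.32% against 6.92%) and below for 8 (19.5% against 13.4%). The counts of lower genes include some, such as DLX6 and LHX1, that passed the filter through their LEN levels. The HEN mean on the log2 scale was the higher for 17 genes (41.5%, against 37.1%) and the lower for 24 (58.5%, against 62.9%). All counts of higher and lower HEN means, also by class or list, are on that scale. The median difference, HEN minus LEN on the log2(FPKM + 1) scale, was -0.30 over the 41 genes and -0.24 over all transcripts tested. After scaling by the upper quartile it was -0.065 over the genes and 0.01 over all transcripts.

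How many genes passed depended on HEN replicate 1. Without that library 20 of the 41 genes passed, which is 48.8% of the genes where 48.8% of all transcripts passed. HEN was the higher for 4 (11.8% of all transcripts) and the lower for 16 (37% of all transcripts). Without HEN replicates 2 and 3, 0 genes passed, and 0.0075% of all transcripts did. With arrayWeights, which gave HEN replicate 1 the lowest weight, 24 genes passed (58.5% against 59.4%), 7 as higher (16.5% of all transcripts) and 17 as lower (43% of all transcripts). Differences of single homeobox genes and of genes of the lists are given on the log2(FPKM + 1) scale with their standard error, HEN minus LEN, n = 3 per group. Where no other is given, their adjusted p was 0.226 in limma.

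**Figure D1:**
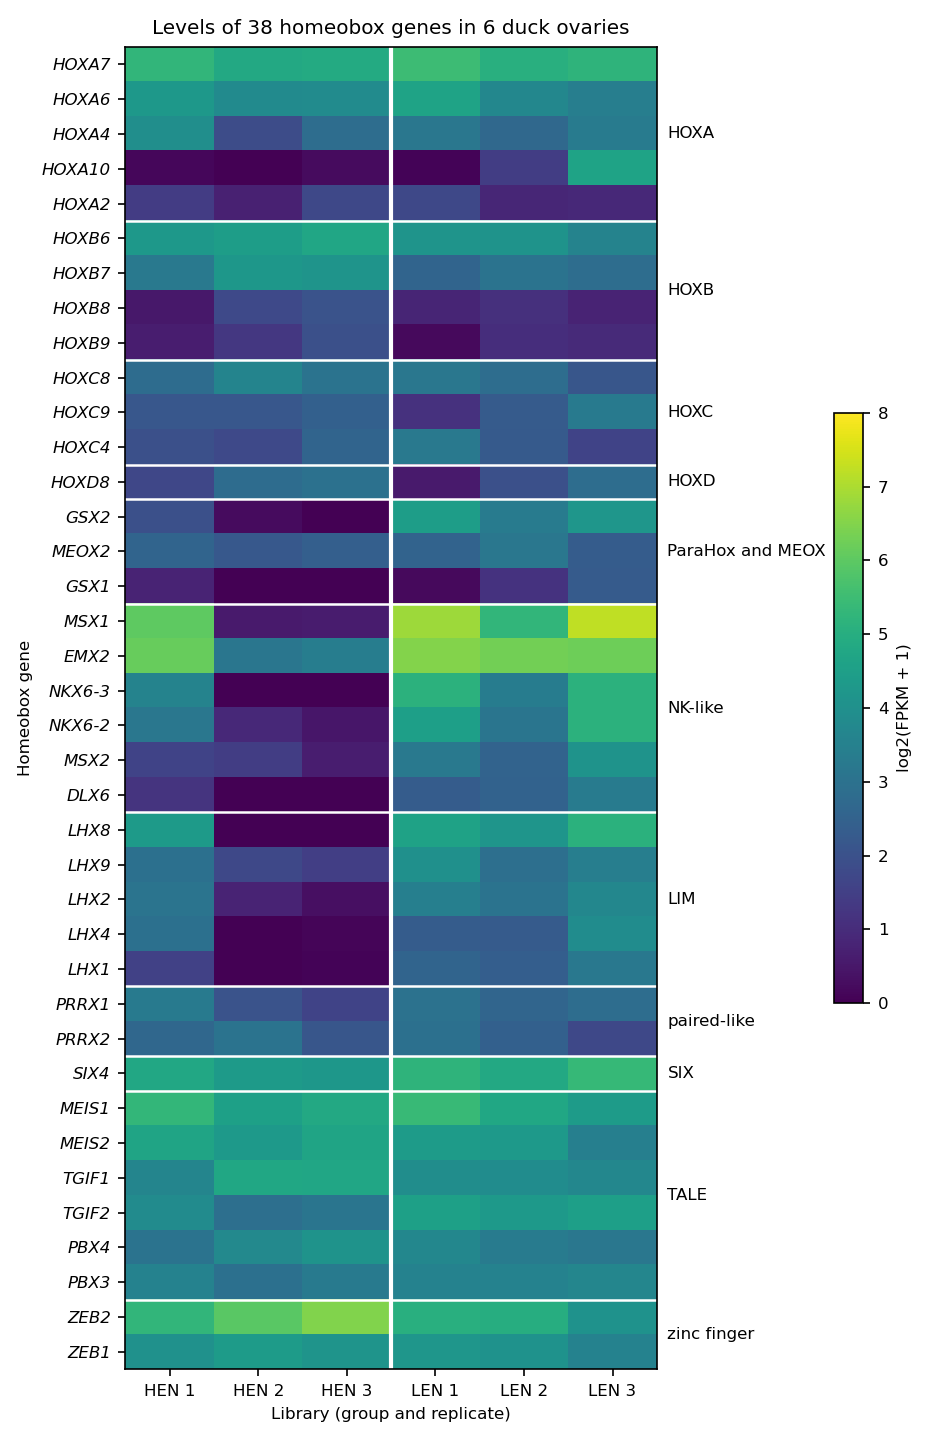
Level of 38 of the 41 tested homeobox genes, as log2(FPKM + 1) by colour, in the 3 HEN libraries (left) and the 3 LEN libraries (right), with genes grouped by class. LHX8, NKX6-3 and DLX6 are at 0 in HEN replicates 2 and 3, while HOXA7 and MEIS1 are at 19.8 FPKM or more in all 6 libraries.

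The LIM genes carry a pair of zinc-binding LIM domains beside the homeodomain, and all 5 that were tested had lower HEN means (median -2.002). LHX8, the oocyte factor, was at 19.5, 0 and 0 FPKM in the HEN ovaries, against 23.4, 17.2 and 33.6 FPKM in the LEN ovaries. These values stood for 610, 0 and 0 fragments in HEN and 741, 561 and 1015 fragments in LEN. HEN replicate 1 lay within the LEN range, and the other HEN libraries lay below the 0.0970 and 0.0999 FPKM that 3 fragments would have given, a limit that covers counting error only. The LHX8 difference was -3.18 ± 1.14.

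LHX1, a regulator of head and kidney duct formation in the mouse, was at 1.93, 0 and 0.0545 FPKM in the HEN ovaries and 4.95, 4.20 and 8.23 FPKM in the LEN ovaries, and its groups did not overlap (-2.18 ± 0.50). LHX2, known from eye and forebrain development, was at 7.49, 0.720 and 0.262 FPKM in the HEN ovaries and 9.91, 7.25 and 12.1 FPKM in the LEN ovaries (-2.002 ± 0.71). Its position overlaps another gene, so its fragments may not all be its own. LHX9, the gonadal LIM gene, was at 6.69, 2.30 and 1.78 FPKM in the HEN ovaries and 15.2, 6.54 and 9.68 FPKM in the LEN ovaries (-1.40 ± 0.48), so that it kept a level in every library where LHX8 did not. LHX4, a pituitary factor named here after its values were seen, was at 6.71, 0 and 0.0813 FPKM in the HEN ovaries and 4.01, 3.96 and 13.98 FPKM in the LEN ovaries, with a difference of -1.83 ± 0.87 (adjusted p = 0.239 in limma). Its direction turned, to 0.10, without HEN replicates 2 and 3.

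All 6 NK-like genes tested had lower HEN means, with a median of -2.53. MSX1 (bases 712464 to 712889 of scaffold KB743090.1) had the highest mean level of the 64 genes and was at 63.8, 0.501 and 0.516 FPKM in the HEN ovaries, against 113, 37.2 and 148 FPKM in the LEN ovaries. Just 4 fragments were counted in each of HEN replicates 2 and 3, against 516 in HEN replicate 1 and 314 to 1156 in LEN. HEN replicate 1 lay between LEN replicates 1 and 2, so the groups overlapped, and the difference of -4.03 was the lowest of the 41 with the largest standard error, 1.46. The related MSX2 was at 2.06, 1.76 and 0.550 FPKM in the HEN ovaries and 8.38, 4.90 and 16.3 FPKM in the LEN ovaries, and here all 3 HEN ovaries lay below all LEN ovaries (-2.06 ± 0.48).

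NKX6-3, a stomach and hindbrain factor, was at 10.9, 0 and 0 FPKM in the HEN ovaries and 34.6, 9.30 and 34.2 FPKM in the LEN ovaries (-3.36 ± 1.04). NKX6-2, a neural factor with 2 rows in the table, was at 8.02, 0.889 and 0.392 FPKM in the HEN ovaries and 21.8, 7.68 and 34.2 FPKM in the LEN ovaries (-2.73 ± 0.81). In both genes HEN replicate 1 lay just above LEN replicate 2. DLX6, which patterns the jaw together with DLX5, was at 1.30, 0 and 0 FPKM in the HEN ovaries and 4.07, 4.74 and 9.03 FPKM in the LEN ovaries, from 11, 0 and 0 against 35, 42 and 74 fragments (-2.33 ± 0.46). DLX5, whose row lies 7634 bases from that of DLX6, reached at most 0.574 FPKM in any library, from 9 fragments.

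EMX2, the gonadal and forebrain factor (bases 1404950 to 1410194 of scaffold KB743308.1), stood at 69.0, 7.83 and 9.59 FPKM in the HEN ovaries and 91.4, 77.2 and 73.9 FPKM in the LEN ovaries. All HEN libraries lay below all LEN libraries, HEN replicate 1 by a small margin, and unlike LHX8 or NKX6-3 it kept 100 or more fragments in every library (-2.12 ± 0.75). The other 7 NK-like genes found were not tested.

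Among the ParaHox and MEOX genes all 3 tested had lower HEN means, of which MEOX2 turned to higher under quantile normalization. GSX1, at a mean of 0.24 FPKM in HEN and 1.77 FPKM in LEN, passed the filter through LEN. GSX2, a forebrain patterning gene whose row spans 297 bases (bases 466218 to 466514 of scaffold KB742619.1), stood at 2.84, 0.180 and 0 FPKM in the HEN ovaries, against 20.8, 8.998 and 17.4 FPKM in the LEN ovaries. The fragments behind these values were 16, 1 and 0 in HEN and 119, 53 and 95 in LEN. The highest HEN ovary thus lay well below the lowest LEN ovary, and the difference was -3.27 ± 0.58, with the smallest unadjusted p of the 41 genes. The row is short, so 3 fragments equal 0.555 FPKM in HEN replicate 3.

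In the paired-like class, PRRX1, a gene of limb and connective tissue mesenchyme, was at 8.70, 3.17 and 2.03 FPKM in the HEN ovaries and 7.10, 5.10 and 6.22 FPKM in the LEN ovaries, with HEN libraries on both sides of LEN (-0.51 ± 0.46, adjusted p = 0.461 in limma).

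The genes that were lower in HEN differed in where HEN replicate 1 stood. Set against LEN alone, HEN replicate 1 differed by -2.05 for GSX2, -1.69 for MSX2, -1.53 for DLX6 and -1.17 for LHX1. The same difference was -0.28 for LHX8, -0.22 for EMX2, -0.32 for LHX2 and SIX4 and -0.42 for MSX1. Other genes lay between, at -1.08 for NKX6-2, -0.98 for NKX6-3, -0.60 for TGIF2 and -0.51 for LHX9, so the genes formed no separate sets. With a single HEN duck these are values without a replicate check, and none passed in limma.

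**Figure D2:**
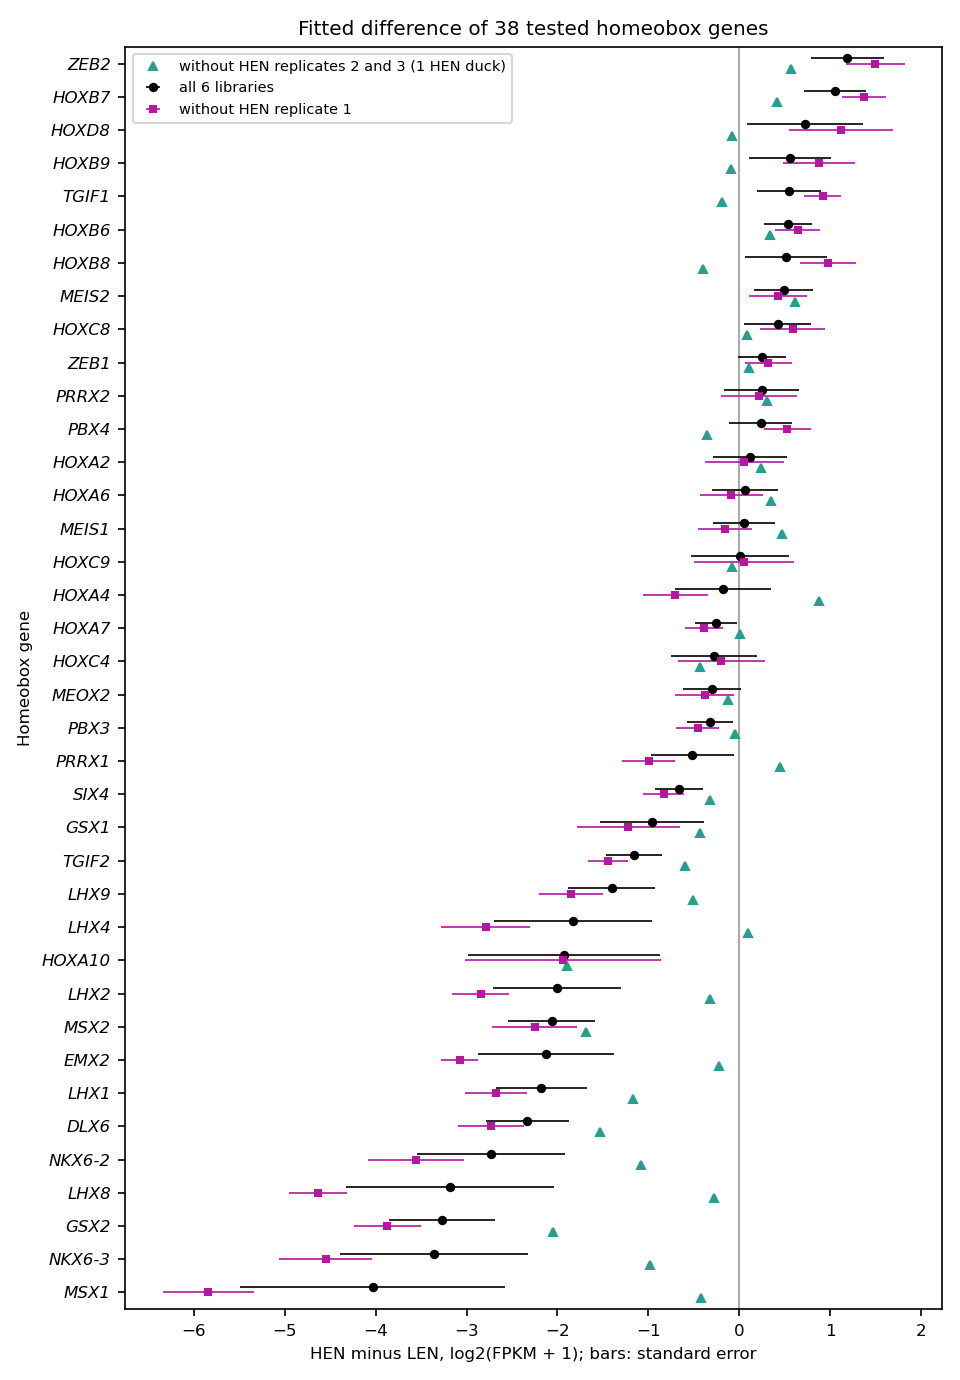
HEN minus LEN difference on the log2(FPKM + 1) scale for 38 of the 41 tested genes, fitted with all 6 libraries (circles), without HEN replicate 1 (squares) and without HEN replicates 2 and 3 (triangles, 1 HEN duck against 3 LEN ducks), with standard errors for the first pair of fits. MSX1, NKX6-3 and LHX8 lie far to the left in the fit without HEN replicate 1 (-5.84, -4.55 and -4.63) and near 0 to -1 in the fit that keeps it alone (-0.42, -0.98 and -0.28).

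Most oocyte markers moved with these genes, 12 of the 14 having a lower and 2 a higher HEN mean. SYCP3, SYCP1 and KIT differed little, by 0.22 ± 0.33, 0.11 ± 0.32 and -0.23 ± 0.33 (adjusted p = 0.669, 0.829 and 0.644 in limma). The position of SYCP3 overlaps another gene. The summed level of the markers was lowest in the same HEN replicates 2 and 3. There 8 and 10 of the 14 markers were under 1 FPKM, against 0 in HEN replicate 1 and 0 to 1 in LEN. In a count defined after seeing the values, 10 of the 41 genes were under 1 FPKM in HEN replicates 2 and 3 and at or above 1 FPKM in the other 4 libraries, among them DLX6, GSX2, LHX1, LHX2, LHX4, LHX8, MSX1, NKX6-2 and NKX6-3, which was 24.4% where 7.54% of all transcripts did so. The egg coat gene ZP2 was at 219, 0.152 and 1.72 FPKM in the HEN ovaries and 309, 252 and 704 FPKM in the LEN ovaries. The part of oocyte content in the homeobox differences was not tested.

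Granulosa markers were mixed, with 5 higher and 6 lower HEN means among 11 genes tested of 16 listed, and a median of -0.20. Their sum was 371, 164 and 192 FPKM in the HEN ovaries and 343 to 394 FPKM in the LEN ovaries. FOXL2, the granulosa transcription factor, was at 175, 33.1 and 55.2 FPKM in the HEN ovaries and 152 to 154 FPKM in the LEN ovaries. Its position overlaps another gene. NR5A2, KITLG, FST, CDH2 and INHBA had HEN means higher by 0.29 to 0.85 on the log2(FPKM + 1) scale, with an adjusted p of 0.300 or more in limma. WT1, of the same list, was at 57.3, 29.2 and 21.3 FPKM in the HEN ovaries and 64.7 to 81.9 FPKM in the LEN ovaries (-1.12 ± 0.37). EMX2 and LHX9 were likewise lowest in HEN replicates 2 and 3, and the part of granulosa content was not tested either.

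Some genes of the epithelial and neural lists were low in the same libraries. Summed over 11 neural and glial genes in the table, the level was 349, 21.2 and 20.9 FPKM in the HEN ovaries, against 402, 280.1 and 548 FPKM in the LEN ovaries. NEFL, a neurofilament gene, was at 287, 1.503 and 6.77 FPKM in the HEN ovaries and 287, 235 and 430.3 FPKM in the LEN ovaries. It made up most of the sum in HEN replicate 1 and in the LEN libraries. Of the 6 neural and glial genes tested, 5 had a lower HEN mean and 1, SYT1, a higher one (0.53 ± 0.33, adjusted p = 0.319 in limma). EPCAM, an epithelial adhesion gene, was at 97.2, 3.07 and 2.96 FPKM in the HEN ovaries and 103, 99.2 and 116 FPKM in the LEN ovaries, whereas KRT7 of the same list lay higher in all HEN ovaries (1.33 ± 0.36). Their part in the homeobox differences was not tested.

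**Figure D3:**
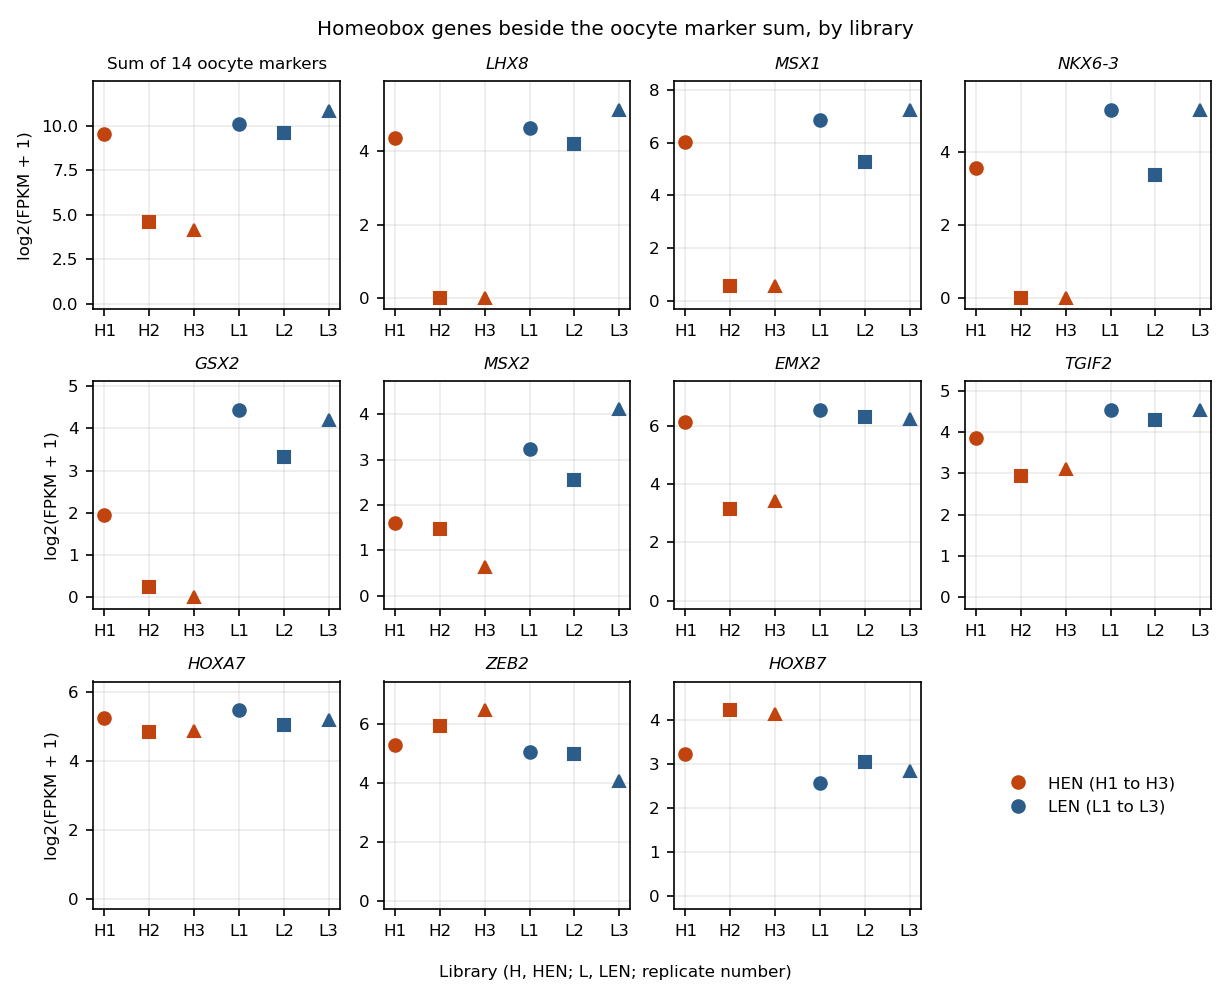
Level in each library, as log2(FPKM + 1), of the sum of 14 oocyte markers and of 10 homeobox genes, with HEN libraries (H1 to H3) left of LEN libraries (L1 to L3), 1 point per duck and a separate vertical scale in each panel. LHX8, MSX1 and NKX6-3 are below all LEN libraries in H2 and H3 alone. GSX2, MSX2, TGIF2, EMX2 and the oocyte sum are below all LEN libraries in H1 as well, the last pair by a small margin. HOXA7 stays between 27.5 and 43.97 FPKM throughout.

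SIX4, a relative of the fly eye gene sine oculis, was at 26.9, 19.5 and 17.9 FPKM in the HEN ovaries and 35.5, 27.6 and 40.2 FPKM in the LEN ovaries, a difference of -0.66 ± 0.26 without overlap, although HEN replicate 1 missed LEN replicate 2 by little. The TALE genes held 5 with a higher and 2 with a lower HEN mean among 7 tested. TGIF2, a repressor in TGF-beta signalling, was the TALE gene with non-overlapping groups. It was at 13.5, 6.603 and 7.595 FPKM in the HEN ovaries and 22.3, 18.7 and 21.99 FPKM in the LEN ovaries (-1.16 ± 0.31). Its relative TGIF1, named after its values were seen and overlapping another gene, was at 11.5, 26.5 and 25.5 FPKM in the HEN ovaries and 14.1, 13.8 and 12.1 FPKM in the LEN ovaries, and had HEN values on both sides of LEN (0.55 ± 0.35, adjusted p = 0.325 in limma).

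MEIS1, the most abundant TALE gene, was at 38.6, 22.4 and 27.2 FPKM in the HEN ovaries and 40.7, 26.1 and 19.8 FPKM in the LEN ovaries. These ranges overlapped almost fully (0.05 ± 0.34, adjusted p = 0.927 in limma). The HOX partners PBX3, PBX4 and MEIS2 had differences between -0.32 and 0.49, with adjusted p of 0.337 or more in limma.

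Both zinc finger genes had higher HEN means. ZEB2 was at 37.8, 60.5 and 88.2 FPKM in the HEN ovaries and 32.2, 30.9 and 16.0 FPKM in the LEN ovaries, so that all HEN ovaries lay above all LEN ovaries (1.19 ± 0.40). Among the homeobox genes it had the most fragments in every library except LEN replicate 3. The numbers were 2551 to 5712 fragments in HEN and 1040 to 2201 in LEN. ZEB1 differed by 0.25 ± 0.27 (adjusted p = 0.539 in limma). Vascular endothelial markers summed to 220 to 404 FPKM in the HEN ovaries and 155 to 272 FPKM in the LEN ovaries over 11 genes of 14 listed, and leukocyte markers to 747 to 1443 FPKM in the HEN ovaries and 419 to 738 FPKM in the LEN ovaries over 13 of 16. Of the tested genes of these lists, 10 endothelial genes had a higher and 1 a lower HEN mean, and 9 leukocyte genes a higher and 4 a lower one, PAX5 and CD247 being lower without overlap. CD74, at a position that overlaps another gene, made up the largest part of the leukocyte sum in each library. Both sums were highest in HEN replicates 2 and 3, as was ZEB2, and their part in its level was not tested.

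HOX genes were found in all clusters, HOXA to HOXD, with 24 symbols on 5 scaffolds. Median levels differed between paralog groups 2 to 9 and groups 10 to 13. Of 13 genes in paralog groups 2 to 9, 12 were tested, and the mean levels of the 13 ran up to 34.3 FPKM with a median of 4.25. The untested gene, HOXD4, averaged 0.198 FPKM. Below group 4 there was HOXA2 alone, as HOXA3 and HOXB3, which the symbol rule did not take, are not counted here. HOXB4 and HOXC5 were not taken either. Their mean levels of 13.7 (HOXA3), 1.63 (HOXB3), 24.7 (HOXB4) and 7.83 FPKM (HOXC5) are thus missing from the median and sums of groups 2 to 9. Of 11 genes in groups 10 to 13, 1 was tested and the median was 0.196 FPKM. HOXA7, the most abundant HOX gene (bases 352864 to 354444 of scaffold KB743319.1), stood at 37.3, 27.5 and 28.7 FPKM in the HEN ovaries, against 43.97, 32.4 and 35.9 FPKM in the LEN ovaries. Its groups overlapped and its difference of -0.26 ± 0.23 (adjusted p = 0.470 in limma) was near the median of all transcripts and had the opposite sign, at 0.019, 0.0051 and 0.0094, after upper quartile, trimmed mean and quantile scaling.

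In the HOXB cluster all 4 genes tested had a higher HEN mean, a direction that HOXB8 and HOXB9 lost without HEN replicates 2 and 3 and that held in all 4 under every scaling. HOXB8 and HOXB9 averaged 0.90 and 0.73 FPKM in LEN and passed the filter through HEN. HOXB7 was at 8.46, 18.0 and 16.7 FPKM in the HEN ovaries and 4.96, 7.24 and 6.21 FPKM in the LEN ovaries, and its neighbour HOXB6 at 18.4, 20.7 and 25.4 FPKM in the HEN ovaries and 16.6, 16.2 and 10.9 FPKM in the LEN ovaries. In both genes all HEN libraries lay above all LEN libraries, HEN replicate 1 being the lowest of the 3. The differences were 1.06 ± 0.34 for HOXB7 and 0.54 ± 0.26 for HOXB6 (adjusted p = 0.244 in limma). HOXB7 passed without HEN replicate 1 (1.37 ± 0.25, adjusted p = 0.00233 in limma), as did HOXB8 (adjusted p = 0.0291 in limma), and HOXB6 did not (adjusted p = 0.0628 in limma). In that fit 11.8% of all transcripts passed as higher. Without HEN replicates 2 and 3 the HOXB7 difference was 0.42.

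The other clusters had no gene with separate groups among those tested. On the log2 scale the HOXA cluster had 2 genes with a higher and 3 with a lower HEN mean. These were 4 and 1 after upper quartile, trimmed mean or quantile scaling. HOXC had 2 and 1, or 3 and 0 after quantile normalization, and HOXD 1 with a higher mean. In FPKM, HOXA4 had the higher HEN mean and HOXA6 and HOXC9 the lower, opposite to their log2 signs. HOXC8 was at 6.09, 11.3 and 7.18 FPKM in the HEN ovaries and 8.09, 6.32 and 3.46 FPKM in the LEN ovaries (0.42 ± 0.37, adjusted p = 0.456 in limma). HOXD8 was at 2.27, 6.09 and 6.99 FPKM in the HEN ovaries and 0.487, 2.83 and 6.23 FPKM in the LEN ovaries (0.72 ± 0.64, adjusted p = 0.458 in limma), so that LEN ranged more widely than HEN. Without LEN replicate 1 the HOXD8 difference was 0.11, and without LEN replicate 3 it was 1.26.

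LEN replicate 3 stood apart in HOXA10. This gene, known from the female reproductive tract in the mouse and named after its values were seen, was at 0.114, 0 and 0.179 FPKM in the HEN ovaries and 0.0565, 1.75 and 23.8 FPKM in the LEN ovaries, from 2, 0 and 3 against 1, 32 and 401 fragments. The highest library thus held 13.6 times the next. In a count defined after seeing these values, 3 of 13328 transcripts (0.0225%) had LEN replicate 3 at 10 times the next library or more. HOXA10 was among these, alone of the 41 homeobox genes tested (2.44%). The count was set from HOXA10 itself, so it says nothing about the homeobox genes as a set. Over the 11 genes of groups 10 to 13 the sum was 2.63, 2.03 and 0.438 FPKM in the HEN ovaries and 2.27, 3.62 and 30.5 FPKM in the LEN ovaries, where HOXA10 made up most of the LEN replicate 3 value. Of the 10 above 0 in any library, 5 were highest in LEN replicate 3, namely HOXA10, HOXC10, HOXB13, HOXA11 at 2.26 FPKM (44 fragments) and HOXD10 at 2.35 FPKM (44 fragments, at a position that overlaps another gene). Of these, HOXB13 rested on 1 fragment, and HOXC12, HOXC13, HOXD11, HOXD12 and HOXD13 were highest in other libraries. LEN replicate 3 was also the highest library for 32.4% of all transcripts tested. The LEN mean of HOXA10 is therefore that of 1 duck, and its difference was -1.93 ± 1.06 (adjusted p = 0.278 in limma).

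**Figure D4:**
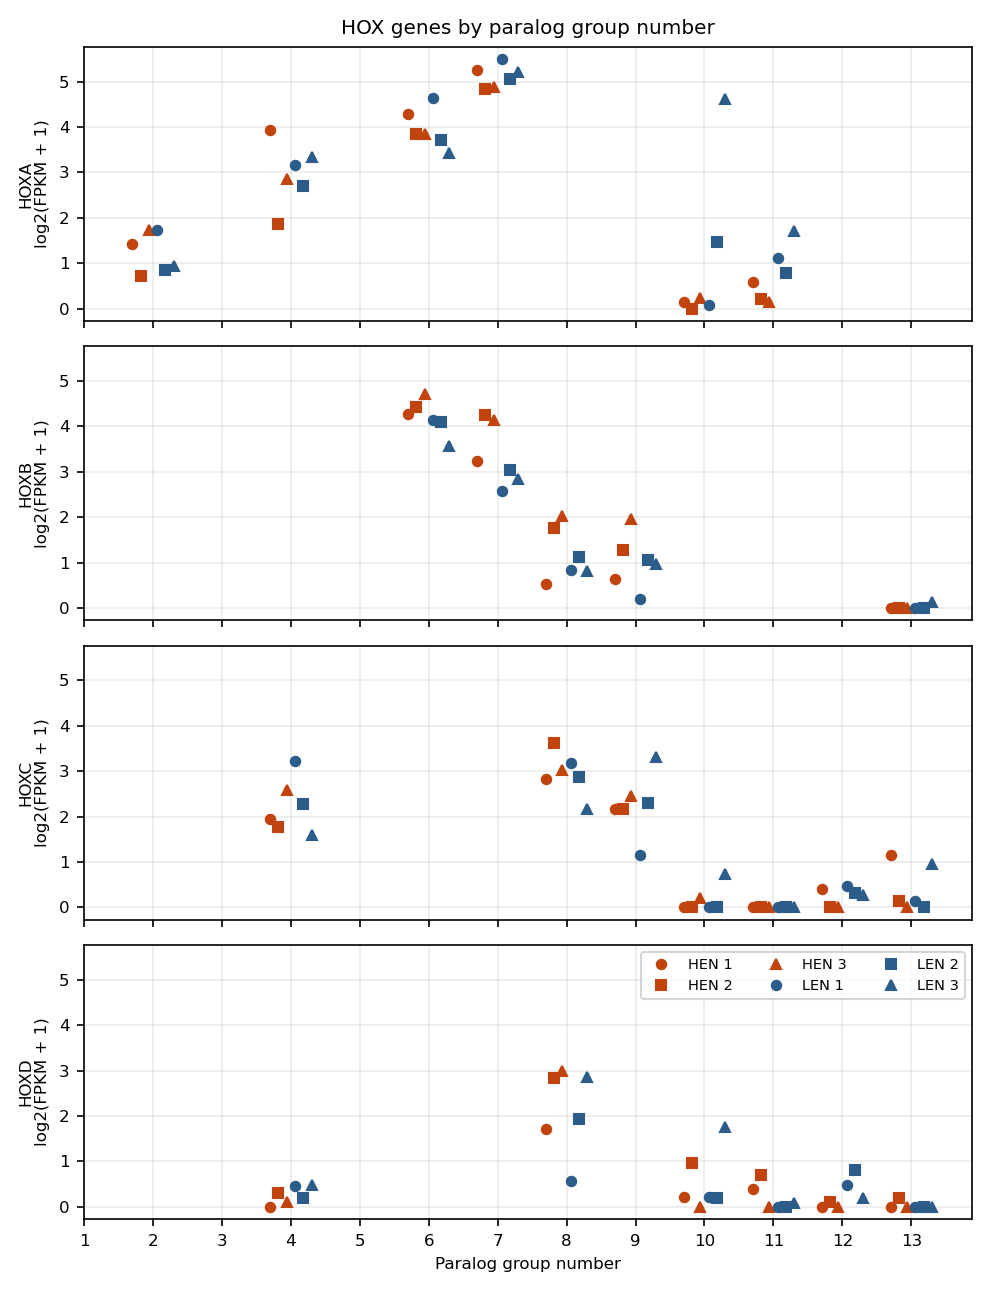
Level of each HOX gene taken by the symbol rule, as log2(FPKM + 1), by its paralog group number, in panels for the HOXA, HOXB, HOXC and HOXD clusters, with 1 point per library (HEN orange, LEN blue, symbols by replicate number). HOXA3, HOXB3, HOXB4 and HOXC5, named through Entrez identifiers, are not drawn. The highest levels are those of genes in groups 4 to 9, such as HOXA7, while HOXD4 reaches 0.382 FPKM at most. Below group 4 the panels hold HOXA2 alone. In groups 10 to 13 the HOXA10 point of LEN replicate 3, at 23.8 FPKM, stands apart.

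Of 112 other homeobox genes listed, 63 had a row and 40 were tested, 16 with a higher and 24 with a lower HEN mean (median -0.48). None passed over all transcripts, 2 higher (5%, against 5.1% of all transcripts) and 10 lower (25%, against 16.9%) had an unadjusted p under 0.05. In the fit that leaves out HEN replicate 1, 6 higher (15%, against 11.8%) and 19 lower (47.5%, against 37%) passed. OTX2, a head patterning gene, was at 6.82, 0 and 0 FPKM in the HEN ovaries and 26.0, 8.68 and 29.1 FPKM in the LEN ovaries (-3.32 ± 0.88). GBX2, of the hindbrain, was at 2.34, 0 and 0 FPKM in the HEN ovaries and 8.67, 2.80 and 5.66 FPKM in the LEN ovaries (-2.06 ± 0.59). RAX, the eye field gene, was at 1.98, 4.35 and 3.27 FPKM in the HEN ovaries and 11.8, 5.45 and 18.5 FPKM in the LEN ovaries (-1.52 ± 0.46). In RAX, unlike OTX2 and GBX2, HEN replicate 1 was the lowest library.

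Polycomb proteins keep HOX and other homeobox genes silent and trithorax proteins keep them active. Of 24 Polycomb genes tested, 7 had a higher and 17 a lower HEN mean (median -0.26, near that of all transcripts), with 0 higher and 3 lower at an unadjusted p under 0.05, which is 12.5% where 16.9% of all transcripts were lower. RNF2, the ubiquitin ligase of the complex, was at 33.6, 2.85 and 3.64 FPKM in the HEN ovaries and 39.5, 28.5 and 40.7 FPKM in the LEN ovaries (-2.11 ± 0.80). Its partner PHC1 differed by -1.34 ± 0.51, and both were low in HEN replicates 2 and 3. Of 15 trithorax and MLL complex genes tested, 9 had a higher and 6 a lower HEN mean (median 0.05) and 0 had an unadjusted p under 0.05. The smallest unadjusted p were those of DOT1L (0.88 ± 0.42), KMT2E (0.51 ± 0.29) and DPY30 (-0.56 ± 0.34), with an adjusted p of 0.238, 0.285 and 0.307 in limma.

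Retinoic acid, made from vitamin A, induces HOX genes and meiosis. Of 15 genes of its pathway tested, 6 had a higher and 9 a lower HEN mean (median -0.31), with 4 lower (26.7%, against 16.9% of all transcripts) and 0 higher at an unadjusted p under 0.05. ALDH1A1, a retinoic acid synthesising enzyme, was at 9.004, 4.29 and 6.27 FPKM in the HEN ovaries and 19.4, 14.1 and 17.3 FPKM in the LEN ovaries (-1.29 ± 0.31). CYP26A1, which degrades retinoic acid, was at 5.92, 0.0353 and 0.145 FPKM in the HEN ovaries and 10.3, 10.1 and 13.8 FPKM in the LEN ovaries (-2.61 ± 0.73), and the vitamin A storage enzyme gene LRAT differed by -1.49 ± 0.51. All 3 HEN ovaries lay below all LEN ovaries for each of these genes, in LRAT by the smallest margin, with 1.747 FPKM in HEN replicate 1 and 1.749 FPKM in LEN replicate 2.

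Of 6 oocyte transcription factor genes outside the homeobox families that were tested, 1 had a higher and 5 a lower HEN mean (median -1.79), with 4 lower at an unadjusted p under 0.05 (66.7%, against 16.9% of all transcripts). TBPL2, the oocyte form of the TATA-binding protein, was at 75.6, 0.0859 and 1.02 FPKM in the HEN ovaries and 126, 72.0 and 173 FPKM in the LEN ovaries (-4.41 ± 1.49). TAF4B and PRDM14 differed by -2.63 ± 1.05 and -1.59 ± 0.42. Like LHX8, TBPL2 and TAF4B were within or near the LEN range in HEN replicate 1.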

How the data were processed

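Total RNA was extracted from frozen ovarian tissue with TRIzol and sequenced after standard Illumina library preparation, per the labels' protocols. The authors deposited FPKM values per Ensembl duck transcript, as the table's name states. Aligner, quantifier, strandedness and build: not given in the sources used here. After 22 repeated rows were dropped, 17169 transcripts remained. Coordinates are those of the deposited table. Groups came from the labels, and replicate numbers from the sample titles. Homeobox genes carried their symbols in the table. Genes of other lists were also named through Entrez identifiers and a RefSeq table of another assembly (710 rows). That route named 5 more homeobox rows (HOXA3, HOXB3, HOXB4, HOXC5 and PITX3), which the symbol rule did not take.

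Fragments per library were inferred from short noncoding genes, for which 100% of 968 values under 200 fragments were whole within 0.02. With these depths every row gave whole fragments over a length within its span (relative tolerance 1e-09). Where all counts of a gene share a divisor the true number is a multiple. PCR copies cannot be separated. Values were compared as log2(FPKM + 1), which understates changes of low genes, for transcripts averaging 1 FPKM or more, with limma 3.58.1 in R 4.3.3 (trend, Benjamini-Hochberg, threshold 0.05), group being the only term. Genes low in a group can pass that filter through the other group. With 3 ducks a group, the smallest two-sided p of an exact permutation test is 0.1. The step was tested on simulated data, drawn with the spread of the LEN libraries in both groups. Over all transcripts tested, the median SD was 0.468 in HEN and 0.279 in LEN on the log2 scale. The simulation therefore does not cover the spread of the HEN libraries.

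Genes and lists were chosen with earlier results of these data known. Named with the value of every library were the tested genes with non-overlapping groups or an unadjusted p under 0.05, and the most abundant gene of each class. Some genes that meet this rule or were counted are not reported here by name. Of each other list of genes tied to homeobox genes up to 3 with the smallest unadjusted p were named. The marker lists covered oocytes, granulosa, theca and stroma, smooth muscle, endothelium, leukocytes, erythrocytes, epithelium and neural cells. The labels gave no batch. Alternatives were other pseudocounts, filters, scalings and weights, a replicate block, voom, and leaving out libraries.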

Additional observations from a re-analysis of the deposited data

How the results depend on the processing

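Without HEN replicate 1, limma called 6501 transcripts and 20 homeobox genes, while arrayWeights gave 7922 and 24. Other fits called 0 homeobox genes, and 0 transcripts or, with a pseudocount of 0.1, scaling to TPM or without HEN replicates 2 and 3, 1. Leaving out 1 library gave 0 to 6501 transcripts, 0 to 20 homeobox genes called and 11 to 26 with no overlap, against 11 with all libraries, and 20 without LEN replicate 2. Without HEN replicates 2 and 3 there were 19. All transcripts had no overlap in 70.5% without HEN replicate 1 (the genes in 63.4%), 39.1% without LEN replicate 2 (48.8%) and 40.9% without HEN replicates 2 and 3 (46.3%). The genes' median difference, -0.30, was -0.065, -0.075 and 0.0094 after upper quartile, trimmed mean and quantile scaling, where the median of all transcripts was 0.01, 0.00 and 0.07, and -0.52 with arrayWeights. Leaving out 1 library gave -0.46 to -0.18.

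Of the 22 genes that met the naming rule, 18 kept their sign in every fit made of them. HOXA7 was at 0.019, 0.0051 and 0.0094 after upper quartile, trimmed mean and quantile scaling and 0.0082 without HEN replicates 2 and 3. MEIS1 was at -0.47 with arrayWeights, -0.15 without HEN replicate 1 and -0.18 without LEN replicate 3 (-0.18 to 0.32 with 1 library left out). Without HEN replicates 2 and 3, HOXD8 was at -0.080 and PRRX1 at 0.45. Genes named outside that rule changed sign too, in the fits below and in some others. Without HEN replicates 2 and 3, LHX4 was at 0.10, TGIF1 at -0.19, PBX4 at -0.36, HOXB8 at -0.40 and HOXB9 at -0.09. In that fit HOXA4 was at 0.87 and HOXC9 at -0.080. HOXA4 also changed sign under upper quartile, trimmed mean and quantile scaling. HOXA6 did so with arrayWeights (-0.54) and without HEN replicate 1, LEN replicate 2 or LEN replicate 3. MEOX2 changed sign under quantile normalization. The cause was not tested. Genes under a mean of 5 FPKM were not fitted with that filter. Depth limits DLX6, GSX2 and LHX1, which had 0 or 1 fragments in HEN replicates 2 and 3.

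Whether replicate numbers paired the ducks could not be told from these data. Deviations of same-numbered libraries from their group means correlated at 0.0168, 0.382 and -0.423, and those of differently numbered libraries at -0.492 to 0.461. With the replicate number as a replicate block, 0 transcripts and 0 homeobox genes passed and the median was -0.30.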

Other observations

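Some rows next to the lower homeobox genes on their scaffolds were lower in HEN too and others were not. MSX1 lies between STX18 and CYTL1, which were at 15.4 to 20.7 and 3.89 to 10.7 FPKM in the HEN ovaries and 15.6 to 16.6 and 1.68 to 6.36 FPKM in the LEN ovaries. NKX6-3 lies 5331 bases from GPAT4 and 4902 bases from ANK1, with differences of -0.61 ± 0.30 and 0.37 ± 0.56 (SE, log2 scale; adjusted p = 0.242 and 0.668 in limma) against -3.36 for NKX6-3. GSX2 lies between CHIC2 and PDGFRA, which differed by -0.06 ± 0.24 and 0.55 ± 0.36 (adjusted p = 0.873 and 0.329 in limma), and LHX8 between TYW3 and SLC44A5, which differed by -1.02 ± 0.45 and 0.17 ± 0.35 (adjusted p = 0.229 and 0.760 in limma). LHX2 had NEK6 on 1 side, at 1.03 ± 0.45 (adjusted p = 0.228 in limma), and CRB2 on the other, at -1.55 ± 0.53 (adjusted p = 0.226 in limma) with HEN below LEN in all libraries.

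Within the HOXB cluster, HOXB4, named through its Entrez identifier, was at 22.3, 37.9 and 34.5 FPKM in the HEN ovaries and 25.1, 15.5 and 13.2 FPKM in the LEN ovaries. HOXA3, named likewise, was at 10.3 to 15.7 FPKM in the HEN ovaries and 9.68 to 18.0 FPKM in the LEN ovaries.

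The unnamed row 6561 bases before HOXA7 (ENSAPLG00000011303) was at 3.14, 0.51 and 6.88 FPKM in the HEN ovaries and 2.91, 8.94 and 18.9 FPKM in the LEN ovaries, highest in LEN replicate 3 like HOXA10.

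Sums of the remaining marker lists were 1384 to 1859 FPKM in the HEN ovaries and 659 to 1492 FPKM in the LEN ovaries for theca and stroma, 1366 to 1616 FPKM in HEN and 648 to 1128 FPKM in LEN for smooth muscle, 38.7 to 507 FPKM in HEN and 38.6 to 93.8 FPKM in LEN for erythrocytes, and 91.1 to 208 FPKM in HEN and 171 to 207 FPKM in LEN for epithelium. In the theca and stroma list 8 of 10 genes had a higher HEN mean. The other 2 were the steroid synthesis genes CYP17A1, at 240, 0.0945 and 0.146 FPKM in the HEN ovaries and 521, 33.5 and 185 FPKM in the LEN ovaries, and STAR, at 191, 3.16 and 7.92 FPKM in the HEN ovaries and 253, 17.9 and 65.0 FPKM in the LEN ovaries.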
